A study of Mus musculus with 2 samples.

Results

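The miR-17/92 cluster of the mouse is a group of 6 microRNA hairpins, Mir17, Mir18, Mir19a, Mir20a, Mir19b-1 and Mir92-1, cut from 1 primary transcript, Mir17hg, on chromosome 14. The 6 rows were taken from the gene tables by their Ensembl IDs and GENCODE symbols, out of 1973 gene rows. Of these rows 1894 were found in GENCODE, all typed as microRNA. The rule names genes and sets no threshold on their values. The samples were midbrain of B6NCrl mouse embryos at embryonic day 13.5, the middle vesicle of the embryonic brain, which at this age holds dividing progenitors and young neurons. Each of 2 biological replicates was tissue pooled from male and female embryos, described as healthy, and gave 1 library of small RNA under 30 nt. No other tissue, age, genotype or treatment belongs to the series, so it holds 1 group and no contrast between conditions. The labels tie both replicates to the same donor record, so the spread between them may be partly technical.

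A microRNA gene is transcribed as a long precursor, from which hairpins are cut and then trimmed to short mature strands. The mature strand leads a silencing complex to messenger RNAs that pair with its seed, the bases from position 2 to position 8. The miR-17/92 cluster is known as a target of Myc and E2F factors. In mouse it promotes the proliferation and survival of progenitors, in the developing cortex among other tissues. Its 6 hairpins carry 4 seeds, and mice have a related cluster on the X chromosome (Mir106a to Mir363) and another on chromosome 5 (Mir106b to Mir25, in an intron of Mcm7).

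The mature strand usually taken as the active one of each hairpin is printed here from RefSeq (GRCm38.p6), 5′ to 3′, with the seed in capitals, because the results are ordered by these seeds. All 6 hairpins and 11 mature strands of the cluster were in that table. The miR-17 and miR-20a strands share the miR-17 seed, and the miR-19a and miR-19b strands share the miR-19 seed.
miR-17-5p: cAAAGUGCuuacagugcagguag
miR-20a-5p: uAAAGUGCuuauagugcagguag
miR-18a-5p: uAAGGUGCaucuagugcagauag
miR-19a-3p: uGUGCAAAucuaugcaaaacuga
miR-19b-3p: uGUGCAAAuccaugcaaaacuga
miR-92a-3p: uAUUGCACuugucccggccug

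Positions are counted from 1 at the 5′ end. Between miR-17-5p and miR-20a-5p the substitutions were C1U and C12U, both outside the seed. The miR-18a-5p strand differs from miR-17-5p by 6 substitutions over 23 bases, of which A4G is the only substitution inside the seed. The 2 strands of the miR-19 seed differ by U11C alone.

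The mature strands of 2 hairpins are not theirs alone. miR-19b-3p is identical in Mir19b-1 and in Mir19b-2 on the X chromosome, and miR-92a-3p is identical in Mir92-1 and in Mir92-2 on the X chromosome. The hairpins are printed with the whole run around the mature strand that each pair shares in capitals, because a read inside that run has 2 places in the genome. The tables tally multimapping reads in a row of their own, apart from the gene rows, and the settings behind that row were not stated.
Mir19b-1: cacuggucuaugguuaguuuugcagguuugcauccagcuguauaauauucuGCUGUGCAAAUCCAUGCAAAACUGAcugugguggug
Mir19b-2: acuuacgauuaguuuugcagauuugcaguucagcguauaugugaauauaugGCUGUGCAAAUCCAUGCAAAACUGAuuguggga
Mir92-1: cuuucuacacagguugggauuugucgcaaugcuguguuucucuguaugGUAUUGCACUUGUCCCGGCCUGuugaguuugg
Mir92-2: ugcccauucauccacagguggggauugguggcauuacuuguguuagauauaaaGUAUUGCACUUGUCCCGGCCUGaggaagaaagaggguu

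The Mir19b pair shares 25 bases, of which 2 lie before the 23-base mature strand and 0 after it. The Mir92 pair shares 22 bases, with 1 before the 21-base strand and 0 after it. In both pairs the first base past the 3′ end of the mature strand differs, so the exact letters of a longer read can tell the loci apart. The other strands of these hairpins, miR-19b-1-5p and miR-92a-1-5p, were found in no other hairpin of the table. The other 4 members had no mature strand in common with another hairpin, and their longest exact run shared with any of 1005 RefSeq hairpins was 13 bases for Mir17, 17 for Mir18, 13 for Mir19a and 17 for Mir20a.

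On mm10 the hairpins lie on the plus strand of chromosome 14, Mir17 from 115043671 to 115043754, Mir18 from 115043851 to 115043946 and Mir19a from 115044000 to 115044081. Mir20a follows from 115044157 to 115044263, Mir19b-1 from 115044305 to 115044391 and Mir92-1 from 115044427 to 115044506. All 6 lie within the longer, 3457-base exon of the transcript Mir17hg-201, which GENCODE M21 places from 115043271 to 115046727. They span 836 nt, with gaps of 35 to 96 nt between neighbours. Hairpin length ran from 80 nt for Mir92-1 to 107 nt for Mir20a. The 6 hairpins were alike in base composition, at 43.7% to 47.5% G or C, and their predicted folding energy ran from -38.7 kcal/mol for Mir19a to -29.2 kcal/mol for Mir18. The 2 members with the fewest counts, Mir19a and Mir19b-1, had predicted energies of -38.7 and -37.8 kcal/mol. Mir17 and Mir20a, the members with the most, had -36.7 and -38.6 kcal/mol, and Mir92-1 had -34.0 kcal/mol. Per 100 nt of hairpin the energies ran from -47.2 for Mir19a to -30.4 for Mir18, with -43.7 for Mir17 and -36.1 for Mir20a. A link of composition or energy to the counts was not tested.

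Replicate 1 held 5093743 reads on the strand of a gene row and replicate 2 held 2935841, and levels are given as counts scaled to this total (CPM). Multimapping reads made up 34.4% of all reads in replicate 1 and 37.7% in replicate 2. With 3 counts as the limit that a count of 0 allows, the floor was 0.589 CPM for replicate 1 and 1.02 for replicate 2. Intervals in the text are 95% exact intervals, which cover counting error only, since reads carried no molecular identifiers. The neural marker list, with miR-9, miR-124, miR-128, miR-137 and miR-92b loci, summed to 18993 CPM in replicate 1 and 17675 CPM in replicate 2. Of its 10 loci, 9 were in the tables and 0 of these were at 0 counts. Mir137 (9265 and 6397 CPM) and Mir92b (8440 and 9987 CPM) held most of the sum. The miR-124 loci and Mir9-2 had low counts, at 1.57 to 9.42 CPM over both libraries, while Mir9-3 stood at 401 and 353 CPM. Any reads tallied as multimapping are missing from these rows, and sharing of mature strands among marker loci was not examined. The values and their sum are thus levels of reads counted at the loci and not of mature miR-9 or miR-124. The lists for other cell types had 16 of 18 loci in the tables, of which 3, all in the muscle list, were at 0 in both libraries. These rows also lack reads tallied as multimapping, so a count of 0 does not show that a microRNA or cell type was absent. The endothelial locus Mir126a stood at 16256 and 21170 CPM, and the 2 mural loci summed to 5051 and 6702 CPM. The choroid plexus, liver and endocrine, leukocyte, erythroid and muscle lists summed to between 10.6 and 1504 CPM.

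The cluster supplied several percent of the reads counted at gene rows. Its 6 hairpins held 384111 counts in replicate 1 and 178605 in replicate 2. That was 7.54% of all counts in replicate 1 (interval 7.52 to 7.56) and 6.08% in replicate 2 (6.06 to 6.11), or 6.81% ± 1.03 (SD, n = 2). With multimapping reads added to the denominator, the mean share was 3.77%. The cluster on chromosome 5 held 3.50% and 3.18%, and the cluster on the X chromosome 0.387% and 0.336%. The order of the 3 clusters was the same in both libraries, and their ranges did not overlap.

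The counts were spread very unevenly over the 6 hairpins. Mir17 and Mir20a, which share the miR-17 seed, together took 86.8% of the counts of the cluster in replicate 1 and 86.0% in replicate 2. Mir18 took 8.56% and 9.08%, Mir92-1 took 4.54% and 4.78%, and the miR-19 hairpins took the rest. Mir19a made up 0.117% (0.107 to 0.129) in replicate 1 and 0.129% (0.113 to 0.147) in replicate 2. Mir19b-1 made up 0.0198% and 0.0325%. Mir17, Mir20a and Mir18 each have strands that no other hairpin shares, whereas reads of miR-19b-3p can fit Mir19b-2 as well, and those tallied as multimapping are not in the share of Mir19b-1.

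**Figure D1:**
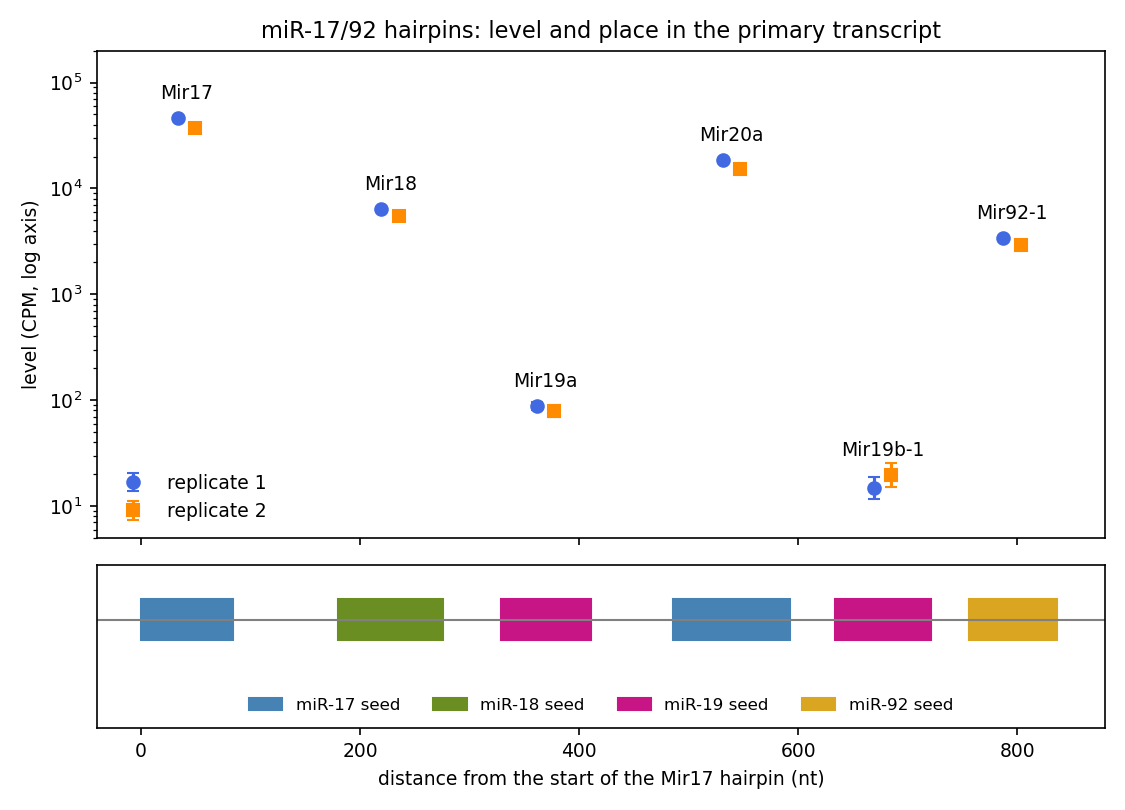
Level of each hairpin in CPM (upper panel, log axis, 1 point per library, bars are 95% exact Poisson intervals, mostly smaller than the points) above its place in nt from the start of Mir17 (lower panel, boxes to scale, coloured by seed). Levels ran from 46803 CPM for Mir17 to 14.9 CPM for Mir19b-1 in replicate 1, and their order did not follow the order along the transcript.

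Among the hairpins with the miR-17 seed, whose mature strands are known to repress cell cycle inhibitors such as Cdkn1a, Mir17 led. Mir17 had 238405 counts, or 46803 CPM, in replicate 1 and 109111 counts, or 37165 CPM, in replicate 2. Its mean was 41984 ± 6815 CPM (SD, n = 2), at place 4 of all rows in replicate 1 and place 5 in replicate 2. Replicate 1 was the higher library, and the intervals of the libraries did not overlap. In the order of mean levels over all rows, Mirlet7g stood just above Mir17 with 44034 CPM in replicate 1 and 47053 CPM in replicate 2, a range that overlapped that of Mir17. Mir130a stood just below with 34720 and 36716 CPM, a range that did not overlap.

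Mir20a had 94852 counts, or 18621 CPM, in replicate 1 and 44438 counts, or 15136 CPM, in replicate 2. Its place among all rows was 12 in replicate 1 and 16 in replicate 2. The range of Mir20a overlapped that of Mir181c just above it (17901 and 17387 CPM) and not that of Mir106b just below it (12435 and 11687 CPM), which is a hairpin of the chromosome 5 cluster with the same seed.

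Mir18, the only member with the miR-18 seed, had 32884 counts, or 6456 CPM, in replicate 1 and 16224 counts, or 5526 CPM, in replicate 2. Its strand is known to repress Ccn2 (connective tissue growth factor). It ranked 33 and 35. Both neighbours in level, Mir411 at 6403 and 6138 CPM and the mural Mir143 at 4991 and 6626 CPM, overlapped it in range.

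Mir92-1 had 17443 counts, or 3424 CPM, in replicate 1 and 8543 counts, or 2910 CPM, in replicate 2, and ranked 54 and 58. The mature strand miR-92a-3p has 2 places in the genome, and the tables do not show which bases or which mature strand the counted reads came from. The level is thus a level of the reads counted at this locus and not of mature miR-92a. The neighbours Mir541 (3900 and 2445 CPM) and Mir484 (3219 and 2912 CPM) overlapped Mir92-1 in range.

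The miR-19 hairpins, whose strands are known as the main oncogenic part of the cluster in mouse lymphoma models, had few counts. Mir19a had 451 counts, or 88.5 CPM, in replicate 1 and 231 counts, or 78.7 CPM, in replicate 2, and ranked 213 and 215. Its mature strand is in no other hairpin of the table. U11C is the only difference of this strand from miR-19b-3p, and the sources used here do not give how mismatched reads were placed.

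Mir19b-1 had 76 counts, or 14.9 CPM (11.8 to 18.7), in replicate 1 and 58 counts, or 19.8 CPM (upper bound 25.5), in replicate 2. The intervals overlapped. Its ranks were 297 and 284, and its range overlapped those of Mir181b-1 just above (24.5 and 11.2 CPM) and Mir34b just below (13.9 and 19.1 CPM). With 2 libraries, likeness of a profile across samples could not be measured, so these neighbours are alike in level only. No member had a read on the opposite strand in either library.

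The order of levels was Mir17, Mir20a, Mir18, Mir92-1, Mir19a and Mir19b-1 in both libraries. All 15 pairs kept the same hairpin on top in both, and they also did so per base of hairpin length. A read of small RNA was taken to span a whole mature strand, so counts were not divided by length otherwise. Read lengths were not examined. No exact test over 2 libraries can give a two-sided p below 0.5, so the pairs are described without one.

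The proportions between the hairpins were close to equal in the 2 libraries. Mir17 had 2.51 times the counts of Mir20a in replicate 1 and 2.46 times in replicate 2, a mean of 2.48 ± 0.0411 (SD, n = 2). Mir20a had 2.88 and 2.74 times the counts of Mir18, and Mir18 had 1.89 and 1.90 times those of Mir92-1. Across the 10 pairs without Mir19b-1 the ratios of the libraries lay at most 1.12-fold apart. The 5 pairs with Mir19b-1 lay 1.49-fold to 1.67-fold apart, and Mir19b-1 rested on 76 and 58 counts.

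The distances to the miR-19 hairpins were much larger. Mir17 had 529 times the counts of Mir19a in replicate 1 and 472 times in replicate 2. Mir92-1, at the 3′ end of the cluster, had 38.7 and 37.0 times the counts of Mir19a, and 230 and 147 times those of its direct neighbour Mir19b-1, which starts 122 nt upstream of it. Mir19a and Mir20a, separated by 75 nt, differed 210-fold and 192-fold. The Mir92-1 and Mir19b-1 rows lack any reads tallied as multimapping, so their ratios compare reads counted at the loci and not mature strands.

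**Figure D2:**
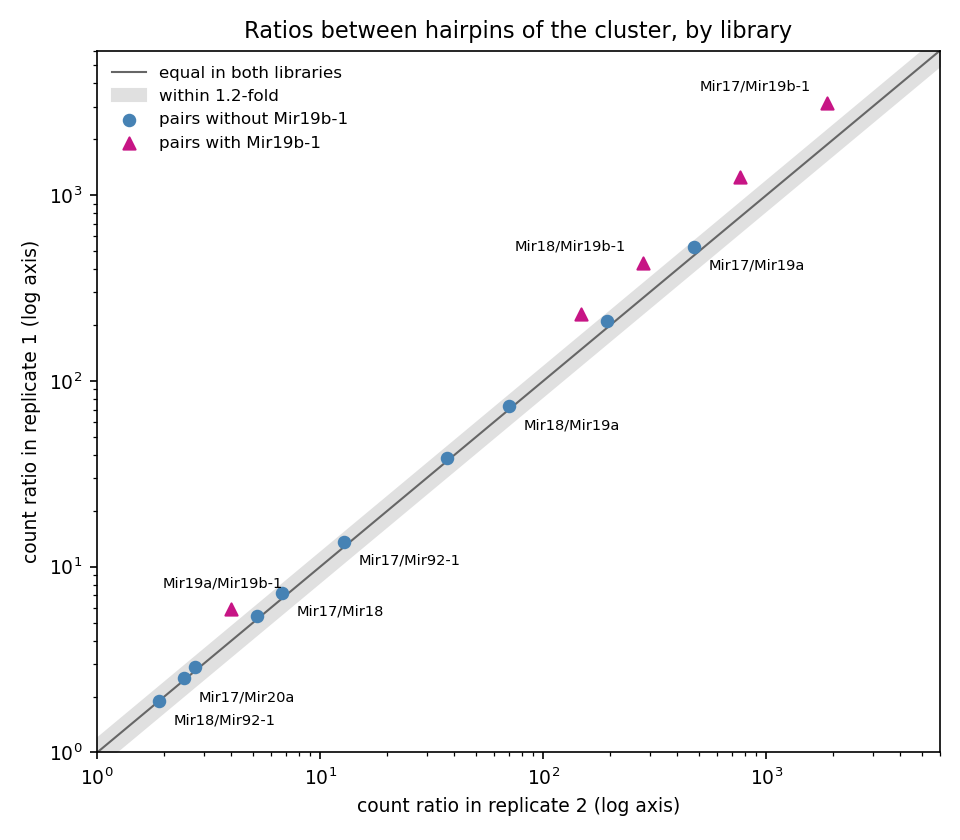
Ratio of counts for each of the 15 pairs of hairpins, replicate 2 on the x axis and replicate 1 on the y axis (both log axes), with the line of equality and a band of 1.2-fold. The 10 pairs without Mir19b-1 lie within the band, and the 5 pairs with it lie above the band, by up to 1.67-fold from equality.

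The seed families were then summed over all loci of the tables with a RefSeq strand of the same seed. In the miR-17 family, 7 rows summed to 102412 CPM in replicate 1 and 85537 CPM in replicate 2, and the 2 hairpins of the miR-17/92 cluster supplied 63.9% (63.8 to 64.0) and 61.1% (61.0 to 61.3). Mir17 alone supplied 45.7% and 43.4%. The hairpins Mir93 and Mir106b of the chromosome 5 cluster supplied 21.5% and 22.8%, and 12.1% and 13.7%. Mir106a and Mir20b on the X chromosome stood at 1638 and 1288 CPM and at 916 and 729 CPM. Mir6383, also with this seed, had 0 counts in both libraries.

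Close relatives in sequence were far apart in count. Mir17 had 28.6 times the counts of Mir106a in replicate 1 and 28.9 times in replicate 2, although their mature strands differ by U10A alone. The intervals of the ratio were 28.0 to 29.2 and 27.9 to 29.8, and they overlapped. Mir20a had 20.3 and 20.8 times the counts of Mir20b, with U1C and U10C between the strands. Against the chromosome 5 cluster the ratios moved more between libraries. Mir17 had 2.13 times the counts of Mir93 in replicate 1 (2.11 to 2.14) and 1.90 times in replicate 2 (1.88 to 1.92). Mir20a had 0.846 and 0.775 times the counts of Mir93, so it was lower than Mir93 in both libraries. The relatives are printed to show how few bases separate them, with the seed in capitals.
miR-106a-5p: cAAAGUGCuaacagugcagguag
miR-20b-5p: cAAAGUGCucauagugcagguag
miR-93-5p: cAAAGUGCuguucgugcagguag
miR-18b-5p: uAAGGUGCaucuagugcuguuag

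In the miR-18 family Mir18 supplied 98.0% and 98.6% of the counts, and Mir18b on the X chromosome the rest. The strands differ by A18U and A20U. Mir18b stood at 132 CPM in replicate 1 and 79.0 CPM in replicate 2, so the ratio of Mir18 to Mir18b was 49.1 (45.5 to 53.1) and 69.9 (61.4 to 80.0). These intervals did not overlap.

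The miR-19 family had the lowest sum of the 4 in these counts, with 108 CPM in replicate 1 and 103 CPM in replicate 2 over 3 rows. Any reads of miR-19b-3p that were tallied as multimapping are missing from this sum and from the shares within it. Mir19a supplied 82.0% and 76.7%, and Mir19b-1 13.8% and 19.3%. Mir19b-2 had 23 and 12 counts. Mir19b-1 had 3.30 times the counts of Mir19b-2 in replicate 1 (2.05 to 5.52) and 4.83 times in replicate 2 (2.57 to 9.89), with overlapping intervals. Both loci give the same mature strand, so neither count is a level of miR-19b.

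The miR-92 family differed from the other 3 in that a hairpin outside the cluster led it. Its 7 rows summed to 13932 CPM in replicate 1 and 15016 CPM in replicate 2. Mir92-1 supplied 24.6% (24.3 to 24.9) and 19.4% (19.0 to 19.8) of the counts. Mir92b, a locus on chromosome 3 known from neural progenitors, supplied 60.6% and 66.5%, at 8440 and 9987 CPM. Mir92-1 had 0.406 times the counts of Mir92b in replicate 1 and 0.291 times in replicate 2. Any reads of miR-92a-3p that were tallied as multimapping are missing from this sum, so the order of miR-92a and miR-92b as mature strands was not measured.

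Of the further loci, Mir363 stood at 956 and 1050 CPM, Mir25 at 597 and 561 CPM, and Mir32 at 289 and 296 CPM. Mir367, a hairpin of pluripotent cells, had 0 counts in replicate 1 and 1 in replicate 2. Mir92-1 had 15.2 times the counts of Mir92-2 in replicate 1 (14.3 to 16.1) and 13.7 times in replicate 2 (12.7 to 14.9), both without reads tallied as multimapping.

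**Figure D3:**
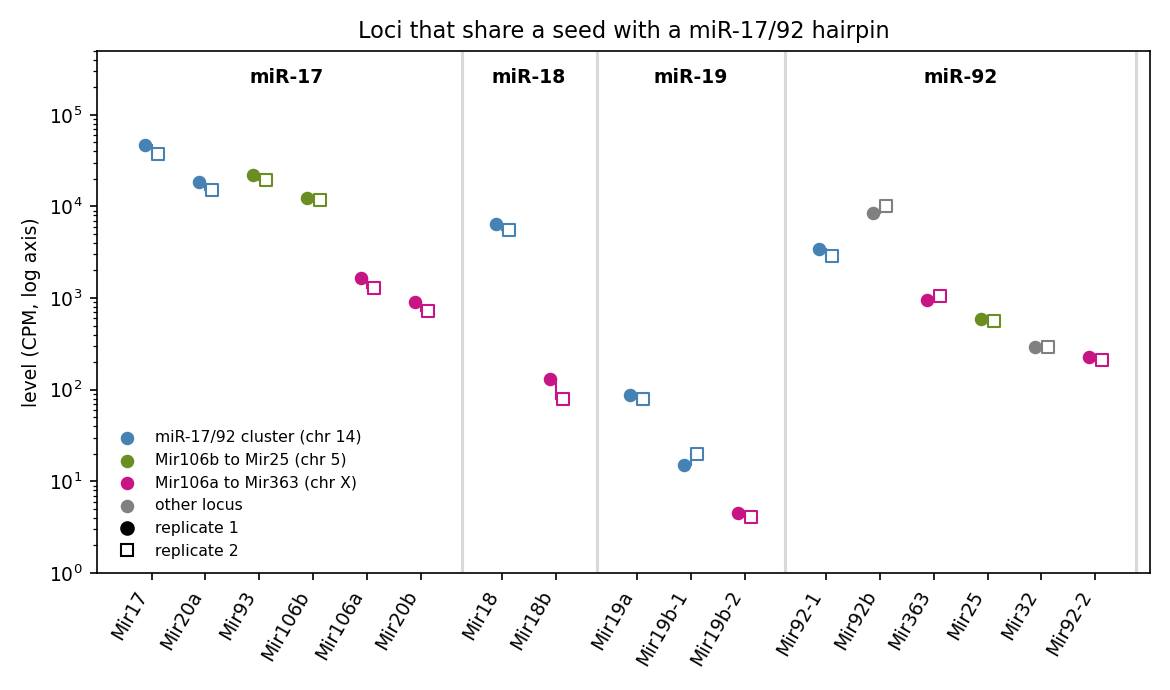
Level in CPM (log axis) of each locus that shares a seed with a hairpin of the cluster, grouped by seed, with filled circles for replicate 1 and open squares for replicate 2. Loci of the miR-17/92 cluster stand first in each family. Mir17, Mir18 and Mir19a are the highest of the miR-17, miR-18 and miR-19 families. Mir93 is above Mir20a in the miR-17 family, and Mir92b is above Mir92-1 in the miR-92 family. Mir6383 and Mir367, at 0 or 1 count, are left out.

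Between the libraries the cluster was higher in replicate 1. The ratio of replicate 1 to replicate 2 was 1.24 for the summed cluster, and it lay between 1.13 and 1.26 for Mir17, Mir20a, Mir18, Mir92-1 and Mir19a. The value for Mir17 was 1.26 (1.25 to 1.27) and for Mir20a 1.23 (1.22 to 1.24). Mir18 had 1.17 (1.15 to 1.19) and Mir92-1 had 1.18 (1.15 to 1.21). The interval of Mir19a, 0.958 to 1.32, included equality, as did that of Mir19b-1 at 0.755 (0.530 to 1.08).

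A difference past 1.5-fold was counted as a call, and 0 of the 6 members passed it, against 21.0% of the 466 rows with at least 10 counts over both libraries. All 6 members were among those rows. Past 1.2-fold, Mir17 and Mir20a were higher in replicate 1, against 27.3% of rows, and Mir19b-1 was higher in replicate 2, against 18.7% of rows. Among the 91 rows with a mean of at least 1000 CPM, 13.2% were past 1.2-fold toward replicate 1, and so were 2 of the 4 members at that level. Counts this small, read against these shares, are no result about the members. The median log2 ratio was 0.23 over the members and 0.06 over the 466 rows. With TMM scaling these medians were 0.16 and -0.0041, and the ratio of Mir17 was 1.202 and that of Mir20a 1.17, so Mir20a was no longer past 1.2-fold. With multimapping reads in the denominator the medians were 0.33 and 0.17. Then 5 members (Mir17, Mir20a, Mir92-1, Mir18 and Mir19a, with ratios of 1.21 to 1.35) were past 1.2-fold toward replicate 1. Mir19b-1, with a ratio of 0.812, was past 1.2-fold toward replicate 2. Every member was thus past it in 1 direction or the other, as were 53.4% of the 466 rows. The share of rows in each direction was not counted under this setting.

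The libraries are replicates of 1 group, so these ratios describe their spread and no condition. Among the marker loci, Mir126a had 16256 CPM in replicate 1 and 21170 CPM in replicate 2, and Mir375, an endocrine locus, had 523 and 1365 CPM. The neural loci went both ways, with Mir137 at 9265 and 6397 CPM and Mir92b at 8440 and 9987 CPM. The whole neural list summed to 18993 and 17675 CPM. The part of the marker loci in the ratio of the cluster was not tested.

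**Figure D4:**
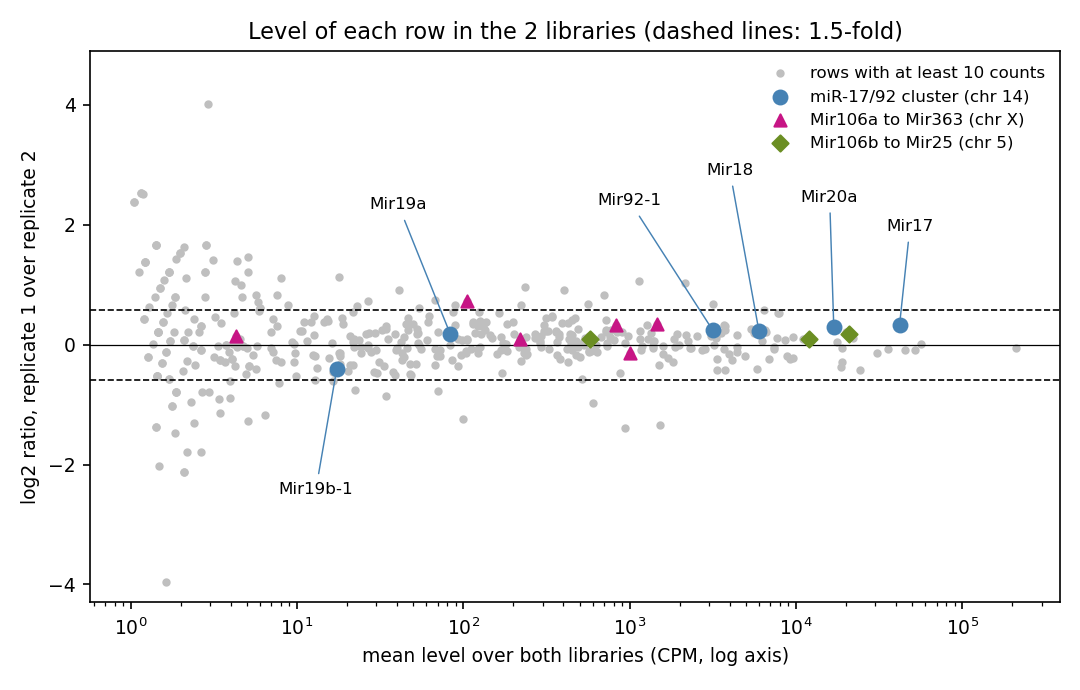
Log2 ratio of replicate 1 to replicate 2 against mean level in CPM (log axis) for the 466 rows with at least 10 counts (grey), the 6 hairpins of the miR-17/92 cluster and the 9 hairpins of the related clusters, with dashed lines at 1.5-fold. The members lie between -0.41 for Mir19b-1 and 0.33 for Mir17, all inside the dashed lines, while Mir18b lies above them at 0.74.

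The same ratio is given for the related clusters. On the X chromosome, Mir106a and Mir20b had ratios of 1.27 and 1.26, Mir18b had 1.66 and Mir363 had 0.910. On chromosome 5 the ratios were 1.13 for Mir93, 1.06 for Mir106b and 1.07 for Mir25. Mir106a and Mir20b thus had ratios close to those of Mir17 and Mir20a, but the 3 clusters were not tested against each other, since 1 pair of libraries gives 1 ratio per locus.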

How the data were processed

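The deposited tables, 1 per library, hold raw read counts per gene row, made by the authors with assembly mm10 and annotation M4, per the file headers. The sources used here do not give the aligner or the trimming, mismatch and multimapping settings. In all 1973 gene rows the first count column equalled the sum of the next 2, which were therefore read as same-strand and opposite-strand counts. Same-strand counts were used. The 4 leading rows name no gene and stayed out of totals (16.1% and 15.7% of reads were unmapped). Replicates differed beyond sampling noise (chi-square per degree of freedom 93.5).

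Symbols and coordinates came from GENCODE M21 (1894 IDs matched without version, all 6 members with the same version) and sequences from RefSeq GRCm38.p6. CPM, Clopper-Pearson and Poisson intervals were computed with scipy 1.17.1 and folding energies with RNAfold 2.7.2. The 1.5-fold rule was tested on simulated counts with known folds. The simulation held sampling noise only, less than the spread of these replicates, so it cannot show how the rule performs on them. A pseudocount of 0.5 CPM was used for ratios of rows with a 0. Alternatives used edgeR 4.0.16 (TMM factors) and DESeq2 1.42.0 (size factors), and no contrast could be fitted with 1 group. Named loci were the members, their neighbours in level, the related clusters and loci of the same seeds. Members and lists were chosen with earlier results of these data known.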

Additional observations from a re-analysis of the deposited data

How the results depend on the processing

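No paired analysis was possible because the series has 1 group. Adding multimapping reads to the denominator gave a cluster share of 3.77%, and levels of 23233 CPM for Mir17, 9337 for Mir20a, 3311 for Mir18, 1751 for Mir92-1, 46.2 for Mir19a and 9.51 for Mir19b-1. The seed families then stood at 51957 (miR-17), 3369 (miR-18), 58.1 (miR-19) and 7966 CPM (miR-92), and the median log2 ratio of all rows shifted by 0.10. These reads were 34.4% and 37.7% of the libraries and belong to unknown loci. Rows whose mature strand no other hairpin shares summed to 83.6 CPM for the miR-19 family and 11089 CPM for the miR-92 family. At a fold of 1.2 in place of 1.5, 3 members passed between the libraries, against 45.9% of the 466 rows. This count is no result about the members. Leaving out 1 of the 2 libraries leaves the value of the other, a cluster share of 6.08% to 7.54%, and says nothing about stability. Per base of hairpin length, 7 of the 15 ratios between hairpins moved by more than 1 SD. Counts without regard to strand leave these ratios as they are by construction, since members had no reads on the opposite strand. What depth limits is the 2 miR-19b loci, with 12 to 76 counts.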
